A study of Homo sapiens with 11 samples.

Results

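The clustered histone genes are the families of small, mostly intronless genes on chromosomes 1 and 6 that encode the canonical histones H1, H2A, H2B, H3 and H4. They were taken by name: rows of the gene count table whose Ensembl ID belongs to a protein-coding gene with an older symbol starting HIST1H, HIST2H, HIST3H or HIST4H, and with at least 10 counts summed over the 11 libraries. Of 57736 gene rows, 36 carried such a name and 24 reached the minimum: 4 H1, 6 H2A, 7 H2B, 3 H3 and 4 H4 genes. All 24 lie in the HIST1 or HIST2 cluster except HIST4H4, which stands alone on chromosome 12. HIST2H3A and HIST2H3C (12 counts each) and HIST4H4 (14) were just inside the minimum, while HIST1H2AD (8) and HIST1H2BL (7) were just outside it, and 7 named rows had 0 counts in every library. Of 71 protein-coding clustered histone genes in GENCODE 29, another 35 had no row under their ID and could not be analysed. The shares, sums and class counts below therefore cover only the genes with a row. Whether reads of the absent genes were counted in rows of similar genes was not tested.

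RNA-seq was done on HEC50B, a human endometrial cancer cell line, in 4 groups. Parental cells with PPP2R1A R183W, a substitution in the scaffold protein of the PP2A phosphatase, and cells made wild type (WT) at that gene with CRISPR each received vehicle or 50 µM WM1119, a small molecule that inhibits the lysine acetyltransferase KAT6A, for 4 days. Each group had 3 libraries, except R183W cells with WM1119, which had 2. The labels do not say whether the CRISPR line is a single clone, so the edit and any other difference between the lines cannot be told apart, and they do not say that the libraries came from separate cultures, so p-values measure only the spread between libraries, which may be technical.

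Canonical histone genes are transcribed mainly in S phase, when new DNA has to be packed into nucleosomes. The core histones H2A, H2B, H3 and H4 form the nucleosome, and linker histone H1 binds the DNA between nucleosomes. Most canonical histone mRNAs end in a conserved stem-loop rather than a poly(A) tail. The protein SLBP binds the stem-loop through processing and translation, and the mRNAs are degraded when S phase ends. A few clustered genes are also made as longer, polyadenylated transcripts, above all in cells that leave the cell cycle.

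The DNA in front of the members whose levels are compared below is shown so that genes that rose, and genes that were higher or lower without passing the test, can be read beside their promoter elements. The 120 bases before the start of transcription are given 5′ to 3′ on the gene's own strand, from RefSeq on GRCh38.p14. Capitals mark matches, on either strand, to a TATA box, a CCAAT box, an octamer, an H1 box, the core of the H4 subtype element or an E2F site, whose letters follow with their counts. Adjoining matches run together.
HIST1H2BK, chr6:27146859-27146978 (minus strand): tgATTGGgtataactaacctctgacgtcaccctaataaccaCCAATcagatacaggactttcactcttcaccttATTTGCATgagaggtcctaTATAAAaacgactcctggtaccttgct
HIST1H2AC, chr6:26124052-26124171 (plus strand): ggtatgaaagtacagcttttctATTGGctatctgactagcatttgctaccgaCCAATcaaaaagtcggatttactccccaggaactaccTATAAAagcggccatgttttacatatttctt
HIST2H2BE, chr1:149886683-149886802 (minus strand): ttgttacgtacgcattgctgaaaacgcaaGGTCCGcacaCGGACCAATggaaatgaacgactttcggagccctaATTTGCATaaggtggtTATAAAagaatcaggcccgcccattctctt
HIST2H2AC, chr1:149886798-149886917 (plus strand): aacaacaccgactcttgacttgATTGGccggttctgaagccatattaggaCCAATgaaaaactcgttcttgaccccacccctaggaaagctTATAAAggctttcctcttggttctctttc
HIST1H1C, chr6:26056471-26056590 (minus strand): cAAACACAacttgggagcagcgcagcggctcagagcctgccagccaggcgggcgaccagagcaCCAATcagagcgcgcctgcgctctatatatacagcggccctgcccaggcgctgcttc
HIST1H1D, chr6:26234988-26235107 (minus strand): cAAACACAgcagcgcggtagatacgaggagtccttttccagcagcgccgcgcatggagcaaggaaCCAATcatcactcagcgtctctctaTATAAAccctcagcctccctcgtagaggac
The H1 box stands near the far end of both H1 windows, and the octamer stands just before the TATA box of HIST1H2BK and HIST2H2BE.

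RefSeq promoters of 300 bases (250 before and 50 after the start) matched 23 of the 24 members, and motifs were counted in them and in all 35116 promoters of the same length. The TATA box, searched as TATAAA, was found in 17 of 23 (73.9%, against 11.5% of all promoters) and CCAAT in 20 (87%, against 34.6%). The octamer, ATTTGCAT, was in 10 (43.5%, against 1.77%), namely 4 of 6 H2A, 5 of 7 H2B and 1 of 3 H3 genes. The H1 box, AAACACA, was in 4 of 4 H1 genes and in 7 members in all (30.4%, against 5.64%). The member not matched was HIST1H4C. The H4 subtype core, GGTCCG, was in the 3 other H4 genes and in 5 members (21.7%, against 11.3%), and an E2F site, TTTCGCGC or TTTGGCGC, in 5 (21.7%, against 1.15%). A match is a description of the letters, and windows of neighbouring genes overlap. Neighbours transcribed away from each other share this DNA: 236 bases separate the starts of HIST2H2BE and HIST2H2AC, 246 those of HIST1H2BC and HIST1H2AC, and 248 those of HIST1H2BJ and HIST1H2AG.

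The other shared sequence is the stem-loop at the end of the mRNA, which marks the transcripts that need no poly(A) tail. The 16 bases of stem, loop and stem were searched for after the coding part of GENCODE 29 transcripts, and the stems are in capitals.
HIST1H2AC, HIST1H2BN, HIST2H2AA3, HIST2H2BE and 4 others: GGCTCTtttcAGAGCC
HIST1H4H, HIST1H4J and HIST4H4: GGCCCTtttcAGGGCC
HIST1H2BC and HIST1H2BD: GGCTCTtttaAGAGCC
HIST1H2AG: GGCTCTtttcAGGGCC
The histone stem-loop pattern was found in 14 of 24 members (58.3%), against 596 of 19659 protein-coding genes with it anywhere in a transcript (3.03%). Of the 10 members without it, 7 have annotated transcripts that end at the stop codon, HIST1H2BK, HIST1H1C, HIST1H1D and HIST2H2AC among them, so their mRNA ends could not be searched. In HIST1H2AC and HIST2H2BE the longest annotated transcript runs on for 1128 and 1729 bases after the stem-loop, whereas in HIST1H4J it stops 6 bases after it.

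Library totals ran from 2609922 to 6065149 counts, and 13980 genes passed the filter on low counts. Of the 24 members, 15 passed and were tested: 4 H1, 4 H2A, 5 H2B and 2 H4 genes. WT WM1119 library 3, the shallowest, stood apart: its log CPM correlated with the other libraries of its group at 0.917 and 0.937, against 0.957 to 0.975 for the other pairs of replicates, and several values that it moves are also given without it. Endometrial and epithelial markers summed to between 1334 and 2485 CPM (counts relative to the library total, scaled by TMM factors), with PAX8, KRT8 and KRT18 well expressed and SOX17 and PGR at 0 counts. Markers of immune and endothelial cells summed to between 2.57 and 11.2 CPM, mostly CD68. Fibroblast and stromal markers summed to between 660 and 1082 CPM, mostly COL1A1 and PDGFRA, with DCN and COL3A1 at 0 counts. This sum moved with the treatment, from 956 ± 111 CPM (SD, n = 3) to 662 ± 2.47 (n = 2) in R183W cells and from 802 ± 78.3 to 1006 ± 69.4 (n = 3 each) in WT cells. Of 5 such genes tested, COL1A1 and PDGFRB fell in R183W cells (edgeR adjusted p = 0.0241 and 0.00749) and COL1A1 rose in WT cells (edgeR adjusted p = 0.0354), and the part of this in the histone results was not tested. Gene counts show neither the edited codon nor KAT6A activity.

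The members held between 0.0696% and 0.145% of the counts of a library. HIST1H4C, one of many genes that encode the same H4 protein, gave 77.1% of all member counts (71.4% to 86.1% by library), and the 4 highest members gave 92.2%. Per kilobase of merged exons in GENCODE 29, HIST1H4C had a mean level of 1662 CPM per kb over the 11 libraries. HIST1H1C (121 CPM per kb), HIST1H2BK (69.3), HIST1H1D (48.8), HIST2H2AA3 (24.2), HIST2H2AC (21.3) and HIST1H1E (15.6) followed. The other 17 members were at 8.3 CPM per kb or lower, down to 0.106 in HIST2H2BF. Exon models decide these values, and the annotation behind the counts may differ. Core histone genes of a class are near-identical in coding sequence, and reads that fit several copies are shared out by estimation, so the split of counts between copies is uncertain. HIST2H3A and HIST2H3C had the same counts in every library. These and HIST1H3D, the 3 H3 members, had 28 counts or fewer over all libraries, too few to describe H3 further.

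**Figure D1:**
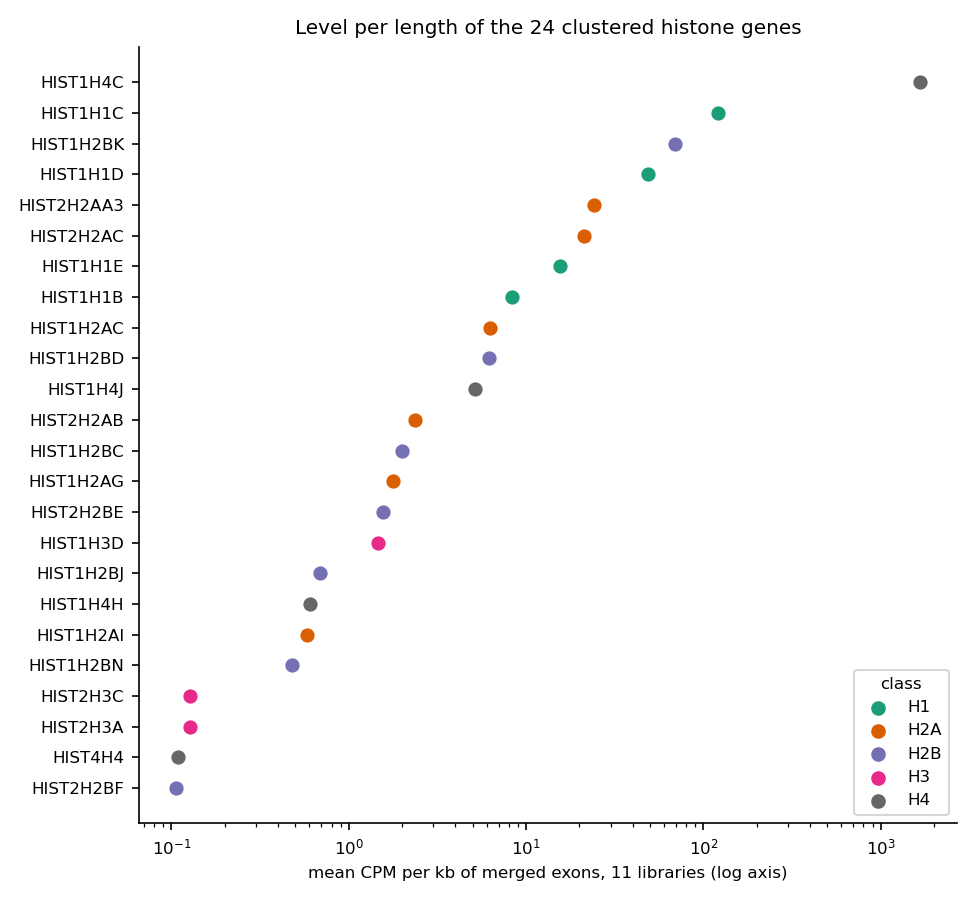
Mean level of each of the 24 clustered histone genes over the 11 libraries, in CPM per kilobase of merged exons on a log axis, coloured by histone class. HIST1H4C, at 1662, is followed by HIST1H1C at 121, and HIST2H2BF is lowest at 0.106.

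The inhibitor comparison in R183W cells asked which histone mRNAs differed after 4 days of WM1119 in the mutant line. Transcripts of an H2B and an H2A gene rose more than 3-fold, HIST1H2BK and HIST1H2AC, while by edgeR no member fell and 3 had an unadjusted p under 0.05 on the lower side. The summed level of the 13 H2A and H2B members went from 57 ± 8 CPM (SD, n = 3) to 148 ± 4 (n = 2), and that of the 4 H1 members from 150 ± 13.8 to 86 ± 16.4. In all, 2 of 15 members tested were called by edgeR (adjusted p under 0.05), both higher, against 4.64% of all genes tested called, 1.99% higher and 2.65% lower. In bulk RNA, more cells with a transcript and more of it per cell cannot be told apart.

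HIST1H2BK (ENSG00000197903), an H2B gene also made with a poly(A) tail, read 16, 14.6 and 15.2 CPM in the R183W vehicle libraries and 58.6 and 56.2 CPM in the R183W WM1119 libraries. Both treated libraries stood far above all 3 controls, which spanned less than 2 CPM. HIST1H2BK rose 3.75-fold, or by 1.91 on the log2 scale (SE 0.24, edgeR adjusted p = 0.000561). HIST1H2AC (ENSG00000180573), an H2A gene whose divergent neighbour is HIST1H2BC, read 5.61, 6.42 and 6.29 CPM under vehicle and 22.1 and 19.6 CPM with WM1119. The groups again lay far apart. HIST1H2AC rose 3.42-fold, or by 1.77 on the log2 scale (SE 0.26, edgeR adjusted p = 0.00203). Both calls held in each of the 11 fits that left out 1 library, where the log2 change of HIST1H2BK ran from 1.86 to 1.93 and that of HIST1H2AC from 1.66 to 1.84.

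Other H2A and H2B genes were higher without passing the test. HIST2H2AA3 comes from a duplicated H2A gene whose other copy was not among the named rows. It read 11.9, 2.14 and 9.94 CPM under vehicle and 25 and 30.2 CPM with WM1119, with no overlap and 1 very low control. Its log2 difference was 1.76 (SE 0.51, edgeR adjusted p = 0.0698), and DESeq2 and limma-voom called HIST2H2AA3 higher (adjusted p = 0.0245 and 0.0402). HIST2H2BE (ENSG00000184678), an H2B gene with a long polyadenylated form, read 2.64, 2.14 and 4.06 CPM under vehicle against 11.3 and 6.04 CPM. Again no treated library was as low as a control, but the treated libraries differed widely from each other. Its log2 difference was 1.56 (SE 0.50, edgeR adjusted p = 0.0973). HIST1H2BD stood at 4.45, 4.71 and 3.04 CPM against 10.8 and 7.25 (log2 difference 1.15, SE 0.46, edgeR adjusted p = 0.179). HIST1H2AG stood at 3.96, 1.93 and 4.46 CPM against 6.24 and 6.95 (log2 difference 0.92, SE 0.46, edgeR adjusted p = 0.29). Libraries of HIST1H2BD and HIST1H2AG did not overlap either. Estimates were above 0 for 5 of 5 H2B and 3 of 4 H2A genes tested.

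The exception among the H2A genes was HIST2H2AC, which shares its promoter region with HIST2H2BE. It read 9.57, 10.1 and 10.9 CPM under vehicle and 6.96 and 8.46 CPM with WM1119, so every treated library was below every control (log2 difference -0.41, SE 0.38, edgeR adjusted p = 0.609). Its 95% interval ran from -1.23 to 0.42, whereas that of HIST2H2BE ran from 0.49 to 2.63. In the pair HIST1H2AC and HIST1H2BC, HIST1H2BC read 1.98, 0.428 and 0.608 CPM under vehicle and 1.44 and 2.11 CPM with WM1119. The groups overlapped, and HIST1H2BC had a log2 difference of 0.74 with an interval from -1.02 to 2.50, beside the rise of its H2A neighbour. The difference between the genes of a pair was not tested.

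**Figure D2:**
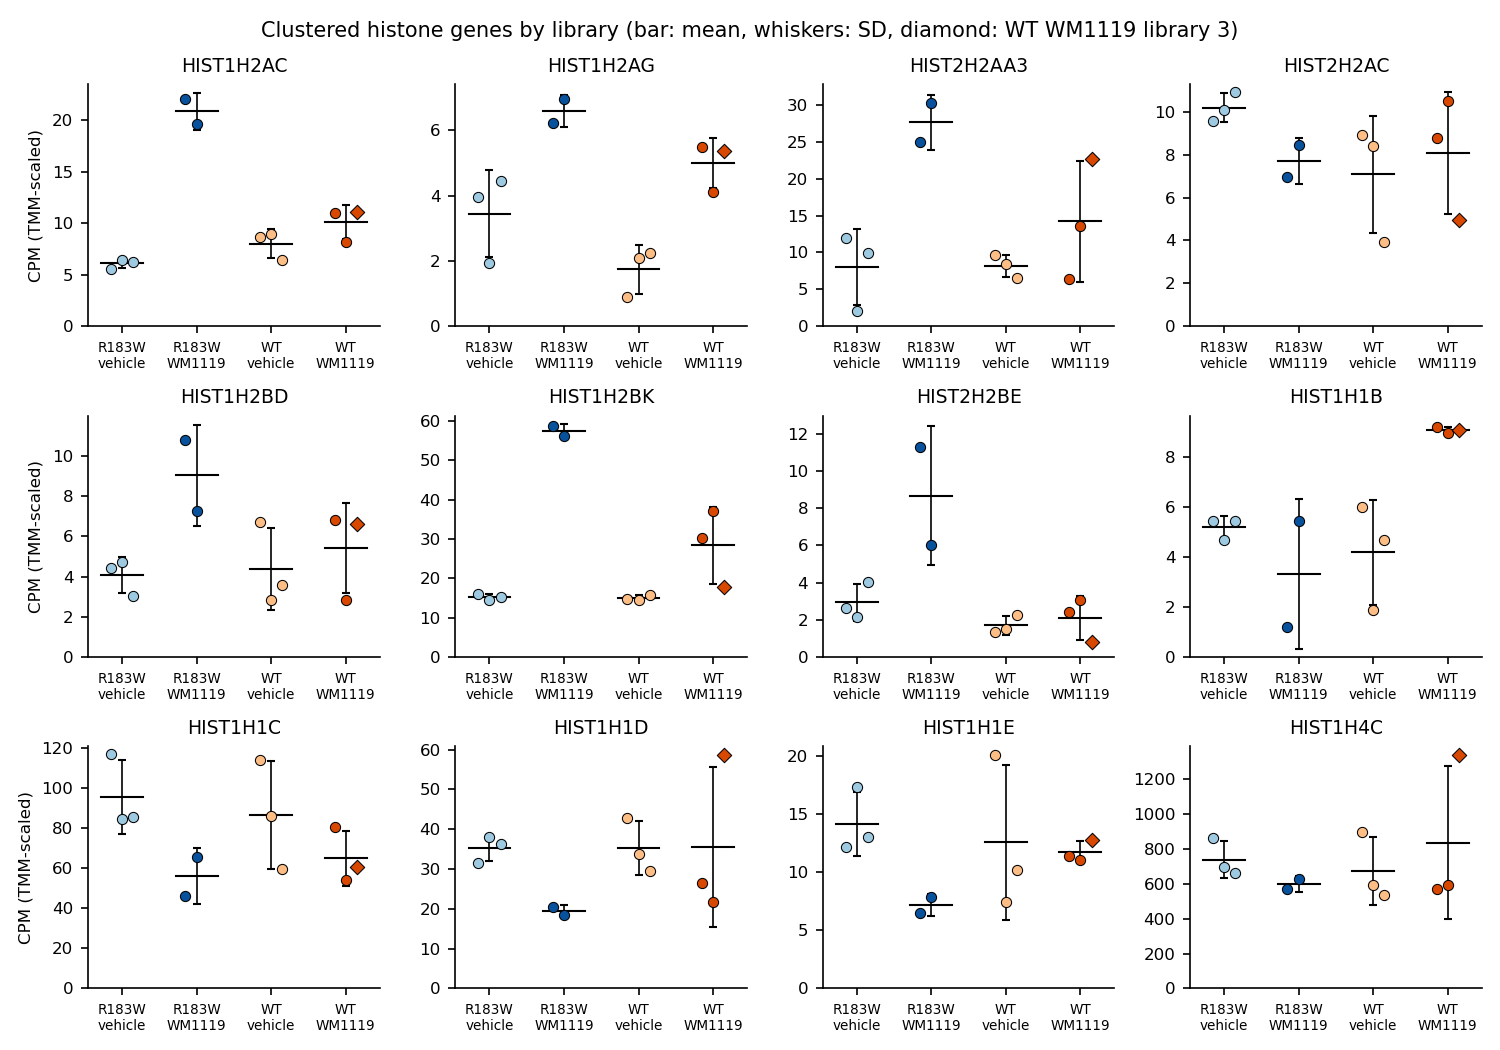
CPM of the 12 members named in the text in every library of the 4 groups, with a bar at the mean and whiskers of 1 SD, on linear axes that start at 0. Both R183W WM1119 libraries of HIST1H2BK (58.6 and 56.2) lie above all others, and WT WM1119 library 3 (diamond) is the highest library for HIST1H4C (1342) and HIST1H1D (58.6).

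All 4 linker histone genes had estimates below 0 in R183W cells, and none passed the test. HIST1H1C, the most abundant H1 gene per kilobase here and one also made with a poly(A) tail, read 117, 84.3 and 85.4 CPM under vehicle and 46.3 and 65.8 CPM with WM1119 (log2 difference -0.77, SE 0.27, edgeR adjusted p = 0.128). HIST1H1D read 31.5, 37.9 and 36.3 CPM against 20.4 and 18.4 (log2 difference -0.85, SE 0.34, edgeR adjusted p = 0.186). HIST1H1E read 12.2, 17.3 and 13 CPM against 6.48 and 7.85 (log2 difference -0.98, SE 0.39, edgeR adjusted p = 0.172). In these 3 genes each treated library was below each control. HIST1H1B overlapped, with 5.44, 4.71 and 5.47 CPM against 1.2 and 5.44 (log2 difference -0.70, SE 0.56, edgeR adjusted p = 0.532), and its difference was 0.04 without the first treated library and -2.10 without the second. HIST1H1C and HIST1H1D were called lower when WT WM1119 library 3, which is not in this contrast but enters the shared estimate of spread, was left out (edgeR adjusted p = 0.0466 and 0.0107). The count of members called was then 6, as HIST2H2AA3 and HIST2H2BE were called higher (edgeR adjusted p = 0.0139 and 0.0395). In that fit 1600 of 13897 genes tested were called, against 649 of 13980 in the main fit.

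HIST1H4C (ENSG00000197061), which gave most of the histone counts, read 862, 696 and 660 CPM under vehicle and 568 and 630 CPM with WM1119. Its treated libraries were just below its controls, and its log2 difference was -0.30 (SE 0.32, edgeR adjusted p = 0.648). The second H4 gene tested, HIST1H4J, was at 0 counts in 1 library of each of these groups. Over all 15 members the libraries of the groups did not overlap in 7 genes that were higher and 5 that were lower, against 23.2% and 23.6% of all genes tested. The median log2 difference of the 15 was 0.74, against -0.001 over all genes tested, with a range from -0.98 to 1.91. These 15 are the members that passed the filter on low counts, so the median does not speak for all 24. The 9 members that did not pass had between 12 and 64 counts over the 11 libraries.

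**Figure D3:**
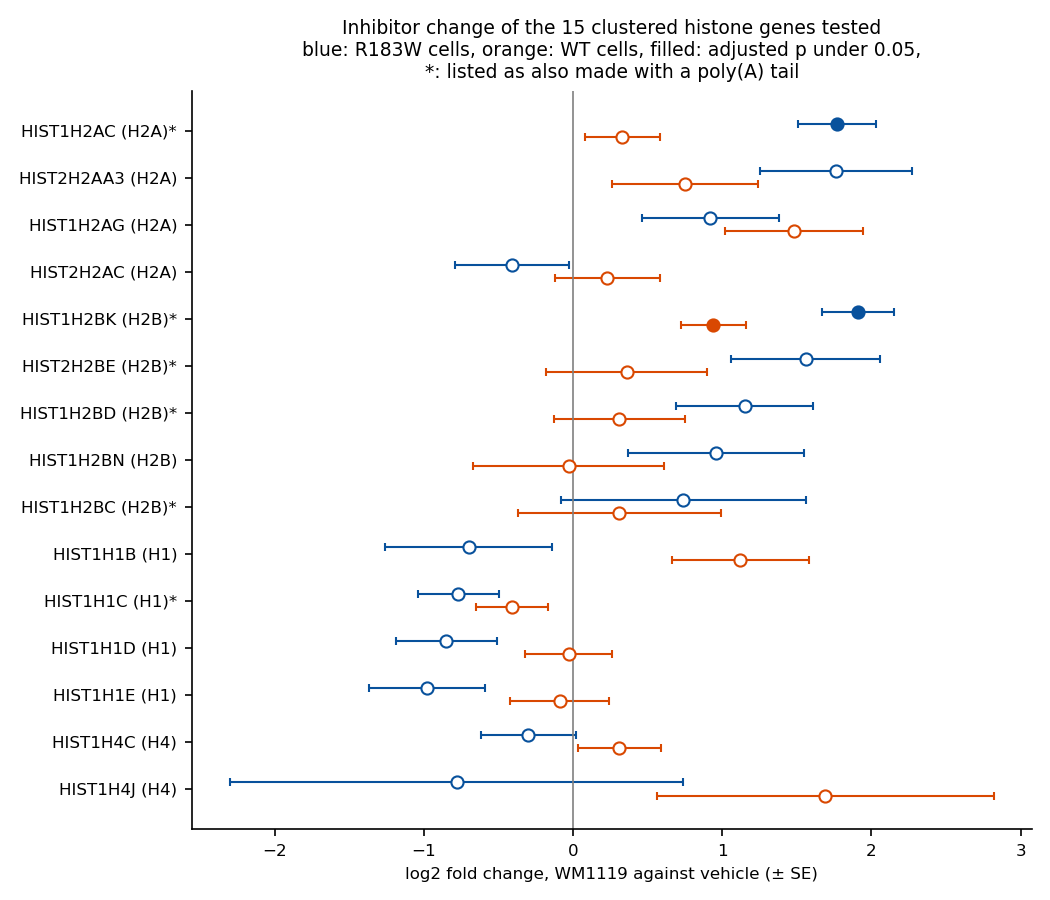
Log2 fold change of WM1119 against vehicle for the 15 members tested, with SE, in R183W (blue) and WT cells (orange), where filled points have an edgeR adjusted p under 0.05. HIST1H2BK is filled in both lines (1.91 and 0.94) and HIST1H2AC in R183W cells (1.77), and the 4 H1 genes lie left of 0 in R183W cells.

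The same comparison in WT cells shares no library with that in R183W cells. HIST1H2BK rose 1.91-fold and was the 1 member of 15 called, against 4.86% of all genes tested called, 2.33% higher and 2.53% lower. It read 14.7, 14.5 and 15.8 CPM in the WT vehicle libraries and 30.3, 37 and 17.8 CPM in the WT WM1119 libraries. All treated libraries were above all controls, but library 3 only by a little. The log2 change was 0.94 (SE 0.22, edgeR adjusted p = 0.03), and 1.16 without WT WM1119 library 3 (edgeR adjusted p = 0.000757). The call was lost when any of 8 other libraries was left out (edgeR adjusted p = 0.0501 to 0.148), namely R183W vehicle 2 or 3, any WT vehicle library, either R183W WM1119 library, or WT WM1119 library 2, where the log2 change was 0.69.

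HIST1H2AC in WT cells read 8.7, 8.96 and 6.4 CPM under vehicle and 11, 8.22 and 11.1 CPM with WM1119. The groups overlapped, and the log2 difference was 0.33 (SE 0.25, edgeR adjusted p = 0.476). HIST1H2AG, from a gene whose divergent neighbour is HIST1H2BJ, read 0.892, 2.1 and 2.26 CPM against 5.49, 4.11 and 5.37, and its groups lay apart. Its log2 difference was 1.48 (SE 0.46, edgeR adjusted p = 0.0807). HIST1H1B, a replication-dependent H1 gene, read 6.02, 1.91 and 4.7 CPM against 9.23, 8.99 and 9.08 (log2 difference 1.12, SE 0.46, edgeR adjusted p = 0.179). Of the 15 members tested, these and HIST1H2BK were the 3 whose WT libraries did not overlap, all higher, against 10.7% of all genes tested, and none was lower without overlap, against 11.6%.

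HIST2H2AA3 varied widely between treated WT libraries, at 6.37, 13.6 and 22.7 CPM with WM1119 beside 9.59, 8.39 and 6.59 CPM under vehicle (log2 difference 0.75, SE 0.49, edgeR adjusted p = 0.415), and without WT WM1119 library 3 the difference was 0.28 (edgeR adjusted p = 0.8). HIST2H2BE read 1.34, 1.52 and 2.26 CPM against 2.42, 3.08 and 0.826 (log2 difference 0.36, SE 0.54, edgeR adjusted p = 0.746), which became 0.67 without that library (edgeR adjusted p = 0.54). HIST1H2BD read 6.69, 2.86 and 3.58 CPM against 6.81, 2.83 and 6.61, and HIST2H2AC 8.92, 8.39 and 3.95 CPM against 8.79, 10.5 and 4.95. All 4 overlapped between the groups.

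The values of a linker and an H4 gene in WT cells rested on a single library. HIST1H1D read 42.8, 33.7 and 29.5 CPM under vehicle and 26.4, 21.6 and 58.6 CPM with WM1119. WT WM1119 library 3 was thus the highest, while the other treated libraries were below every control. The log2 difference of HIST1H1D was -0.03 (SE 0.29, edgeR adjusted p = 0.97), and -0.55 without that library (edgeR adjusted p = 0.118). HIST1H4C read 898, 593 and 534 CPM against 573, 596 and 1342, and its log2 difference of 0.31 (SE 0.28, edgeR adjusted p = 0.567) became -0.20 without the same library (edgeR adjusted p = 0.554). HIST1H1C read 114, 86 and 59.7 CPM against 80.4, 53.9 and 60.7 (log2 difference -0.41, SE 0.24, edgeR adjusted p = 0.351), and HIST1H1E 20.1, 7.43 and 10.2 CPM against 11.4, 11 and 12.8. The median log2 difference of the 15 members was 0.31, against -0.003 over all genes tested.

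Whether the inhibitor acted differently in the 2 lines was tested by the interaction, that is, the change in the mutant line minus the change in the WT line, which uses all 4 groups. No member was called by edgeR, DESeq2 or limma-voom, against 0.286% of all genes tested by edgeR (0.093% higher, 0.193% lower). At an unadjusted edgeR p under 0.05 there were 3. HIST1H2AC differed by 1.44 (SE 0.36, edgeR adjusted p = 0.152), and its 95% interval ran from 0.66 to 2.22. HIST1H2BK differed by 0.97 (SE 0.33, edgeR adjusted p = 0.324) with an interval from 0.27 to 1.67. HIST1H1B differed by -1.82 (SE 0.73, edgeR adjusted p = 0.439) with an interval from -3.37 to -0.26, and by -1.08 and -3.22 without R183W WM1119 library 1 or 2, which read 1.2 and 5.44 CPM. Estimates were above 0 for 5 of 5 H2B genes and below 0 for 4 of 4 H1 genes. The median over the 15 was -0.37, against -0.009 over all genes tested, and ran from -0.64 to 0.18 with 1 library left out. A larger inhibitor change in either line was therefore not shown for any member after adjustment.

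Under vehicle no difference between the lines was detected in the members tested, though several intervals were wide. None of the 15 members tested was called by edgeR, none had an unadjusted p under 0.05, and DESeq2 and limma-voom called none, against 13% of all genes tested by edgeR (6.82% higher, 6.17% lower). HIST1H2BK stood at 15.3 ± 0.727 CPM in R183W and 15 ± 0.704 in WT cells (SD, n = 3 each), a log2 difference of 0.02 with a 95% interval from -0.46 to 0.51. HIST1H2AC stood at 6.11 ± 0.434 and 8.02 ± 1.41 CPM, with an interval from -0.93 to 0.14. Several other intervals were wider, as for HIST1H2BN (-0.30 to 2.19), HIST1H2BC (-2.30 to 0.75) and HIST1H4J (-2.33 to 2.80). In simulated counts 2-fold changes were recovered at 41.8% in this comparison. With so few members, none called does not show that the lines were alike. HIST1H2AG had the lowest adjusted p (0.19 by edgeR), at 3.45 ± 1.34 CPM in R183W and 1.75 ± 0.746 in WT cells, a log2 difference of 0.96. Of the 15 tested, HIST2H2AC was the only one whose libraries did not overlap, higher in R183W cells, against 19.3% of all genes tested. The median over the 15 members was 0.15, against -0.008 over all genes tested.

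Under WM1119, 3 of 15 members were called and all were higher in R183W cells, against 8.56% of all genes tested called, 4.64% higher and 3.92% lower. This comparison shares its treated libraries with the inhibitor comparisons above, so it is not a separate line of evidence. HIST1H2BK was 1.99-fold higher (log2 difference 1.00, SE 0.23, edgeR adjusted p = 0.0179), HIST1H2AC 2.07-fold (1.05, SE 0.26, edgeR adjusted p = 0.0243) and HIST2H2BE 3.9-fold (1.96, SE 0.53, edgeR adjusted p = 0.034). In each the R183W libraries lay above the WT libraries. Libraries did not overlap in 7 members that were higher and 3 that were lower, against 18.5% and 16.3% of all genes tested. HIST1H2BN, at 4.8 and 6.64 CPM in R183W and 1.76, 1.03 and 1.65 CPM in WT cells, was among the higher without passing (log2 difference 1.93, SE 0.65, edgeR adjusted p = 0.087). HIST1H1B, HIST1H1D and HIST1H1E were the 3 lower, with log2 differences of -1.50, -0.83 and -0.71 (edgeR adjusted p = 0.12, 0.167 and 0.301). The difference of HIST1H1B was -0.75 without R183W WM1119 library 1 and -2.90 without library 2, and that of HIST1H1D was -0.32 without WT WM1119 library 3. The median over the 15 members was -0.11, against -0.024 over all genes tested, and its sign was not stable: it was 0.13 with no filter, 0.15 with only the groups compared, and above 0 without any 1 library other than R183W WM1119 library 2 (-0.37).

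Those 3 calls rest on few libraries. No member was called without R183W WM1119 library 1 or without library 2, which leaves that group a lone library assumed to vary like the others. Without WT WM1119 library 2 the 1 call was HIST1H2BK, and without WT WM1119 library 3 there were 4 calls, HIST2H2AA3 being added. Those 2 fits called 749 of 13912 and 2895 of 13897 genes tested, against 1197 of 13980 in the main fit. HIST2H2BE was also lost without R183W vehicle library 1 (edgeR adjusted p = 0.0502), WT vehicle library 2 (0.0515) or WT WM1119 library 1 (0.0711).

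Summed by class, the H2A and H2B members separated the R183W WM1119 libraries from the rest. The 13 genes summed to 64.2, 48.4 and 58.4 CPM in R183W vehicle libraries and 151 and 145 CPM with WM1119. A few genes carried this sum: the R183W means of HIST1H2BK went from 15.3 to 57.4 CPM, of HIST2H2AA3 from 7.99 to 27.6 and of HIST1H2AC from 6.11 to 20.9. Means of HIST2H2AC, HIST2H2AB and HIST2H2BF were lower with WM1119, so the sum does not describe every gene of the classes. In WT cells they summed to 54.4, 49.7 and 48.4 CPM under vehicle and 80.6, 81.4 and 73.9 CPM with WM1119, so treated libraries were above controls in both lines and highest in R183W. The 4 H1 genes summed to 166, 144 and 140 CPM under vehicle and 74.4 and 97.6 CPM with WM1119 in R183W cells. In WT cells they summed to 139 ± 40.3 CPM under vehicle and 121 ± 23.4 CPM with WM1119 (SD, n = 3 each), with the groups overlapping. All 24 members together summed to 689 to 1559 CPM, a total that mostly follows HIST1H4C. Without HIST1H4C the other 23 summed to 212 ± 20.9 CPM in R183W vehicle, 238 ± 14.6 in R183W WM1119, 193 ± 43.1 in WT vehicle and 206 ± 18.1 in WT WM1119 libraries.

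**Figure D4:**
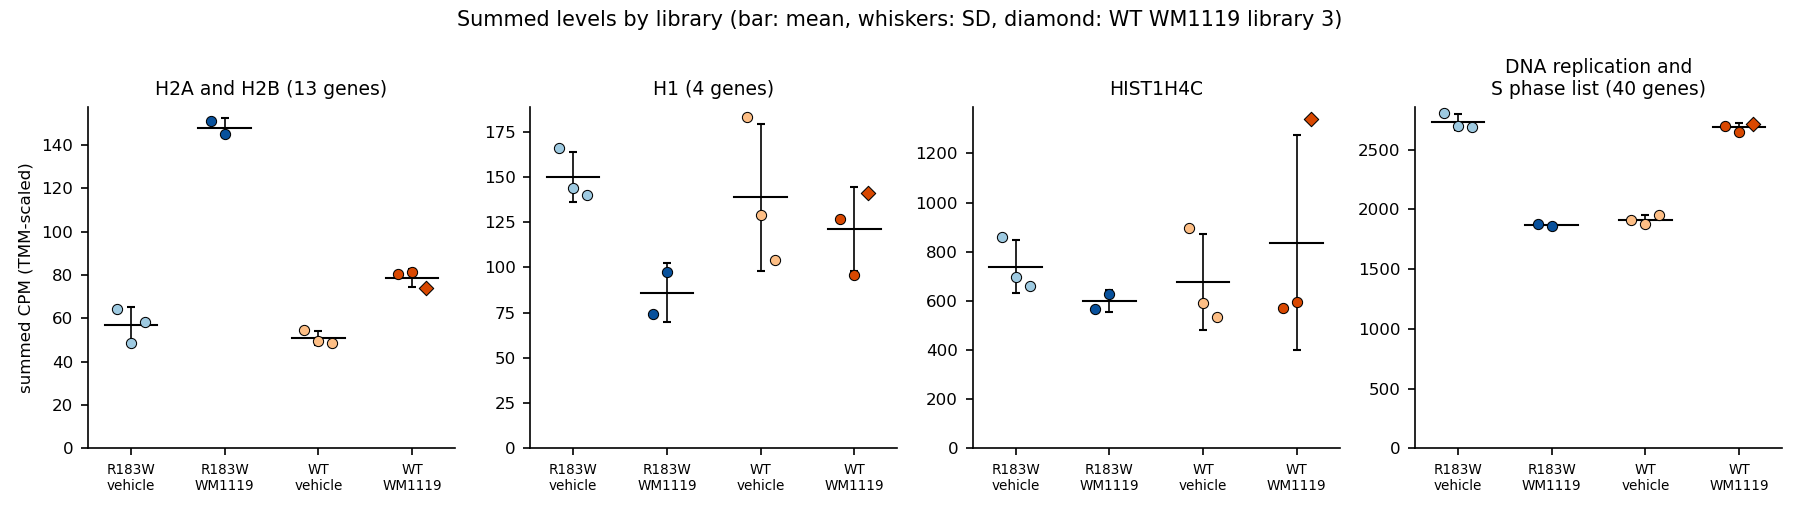
Summed CPM per library of the H2A and H2B members (13 genes), the H1 members (4 genes), HIST1H4C and the list of 40 DNA replication and S phase genes, with a bar at the mean and whiskers of 1 SD. The R183W WM1119 libraries are highest for H2A and H2B (151 and 145) and among the lowest for the replication list (1877 and 1862).

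Genes of DNA replication and S phase are normally co-expressed with canonical histones. As a list they moved the other way from HIST1H2BK in R183W cells and the same way as HIST1H2BK in WT cells. Histone members differed in this: in R183W cells all 4 H1 genes and HIST1H4C had estimates below 0, like the replication genes, though none of these members was called. The 40 genes of that list summed to 2810, 2697 and 2693 CPM under vehicle and 1877 and 1862 CPM with WM1119 in R183W cells. In WT cells they summed to 1908, 1880 and 1953 CPM under vehicle and 2698, 2652 and 2715 CPM with WM1119. The order of the treatments was thus opposite in the lines, with no overlap in either. In R183W cells 9 of the 40 fell by edgeR (22 were lower and 0 higher at an unadjusted p under 0.05, median log2 difference -0.63), against 2.65% of all genes tested called lower. POLA2, a subunit of the primase complex, fell by 1.28 on the log2 scale (SE 0.19, edgeR adjusted p = 0.00175, and 0.0522 without R183W WM1119 library 2). In WT cells 12 rose (20 were higher and 0 lower at an unadjusted p under 0.05, median 0.49), against 2.33% called higher. POLD1, the catalytic subunit of a replicative polymerase, rose by 1.43 (SE 0.26, edgeR adjusted p = 0.00782). In the interaction 8 were called lower, against 0.193% of all genes tested called lower. Under vehicle 17 were called higher in R183W than in WT cells, against 6.82% of all genes tested called higher. Under WM1119 5 were called lower, against 3.92% called lower. The part of this shift in the histone levels was not tested.

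Members listed as also made with a poly(A) tail were described apart from the rest, since the labels give polyA RNA as the molecule but name a library kit that removes ribosomal RNA. Of 8 such genes 6 were tested. In R183W cells 2 rose with WM1119, HIST1H2BK and HIST1H2AC, against 1.99% of all genes tested called higher. The median log2 difference was 1.35. Of the 9 members tested outside the list none was called by edgeR, against 4.64% of all genes tested. Among these 9, 3 had an unadjusted p under 0.05, DESeq2 and limma-voom called HIST2H2AA3, and the median was -0.41. With so few genes, none called is near the share of all genes, and the difference between listed and other members was not tested. The 8 listed genes together summed to 127 ± 19.4 CPM in R183W vehicle (SD, n = 3) and 157 ± 4.85 CPM in R183W WM1119 libraries (n = 2). In WT cells the 8 summed to 119 ± 28.7 CPM under vehicle and 114 ± 19.5 CPM with WM1119 (n = 3 each), with the groups overlapping. Without HIST1H1C, the remaining 7 listed genes summed to 33.2, 31.5 and 31.2 CPM in R183W vehicle libraries and 108 and 94.8 CPM with WM1119. In WT cells they summed to 34.8, 30.7 and 32 CPM under vehicle and 55.6, 52.7 and 38.4 CPM with WM1119. The sum of these 7 genes was thus higher in treated libraries than in controls in both lines, with HIST1H2BK its largest part. That holds only with HIST1H1C left out, whose log2 differences were below 0 in R183W (-0.77) and WT cells (-0.41). With HIST1H1C, the WT sum was not higher with WM1119. Single genes did not all follow. In WT cells HIST1H2AC, HIST1H2BC, HIST1H2BD and HIST2H2BE overlapped between the groups. There the mean of HIST1H4H went from 0.994 to 0.593 CPM and that of HIST1H2BJ from 0.577 to 0.146. HIST1H2BC overlapped in R183W cells too. The RNA component RMRP, which carries no poly(A) tail, was detected in every library, at 14.8, 9.2 and 6.49 CPM in R183W vehicle and 14.9 and 16.3 CPM in R183W WM1119 libraries. In the WT line RMRP read 5.35, 4.76 and 4.89 CPM under vehicle and 5.71, 3.08 and 10.7 CPM with WM1119. How far the RNA selection shaped the histone levels was not tested.

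Factors that make and process histone mRNA were called with WM1119 at about the share of all genes. Of 23 genes of histone pre-mRNA processing and histone gene transcription, E2F1, an activator of S phase genes, was the only one called. That is 4.35% of the list in each line, against 4.64% of all genes tested in R183W cells and 4.86% in WT cells. In R183W cells it read 66.3, 52.2 and 59.2 CPM under vehicle and 28.1 and 38.1 CPM with WM1119, and it fell by 0.85 on the log2 scale (SE 0.22, edgeR adjusted p = 0.0471). E2F1 in the WT line read 30.8, 25.2 and 27.8 CPM under vehicle and 37.3, 52.7 and 60.7 CPM with WM1119, a rise of 0.84 (SE 0.20, edgeR adjusted p = 0.0294). Its groups lay apart in both lines, and the difference between the lines passed the test (interaction -1.68, SE 0.30, edgeR adjusted p = 0.0313). With 1 library left out the E2F1 calls were lost in 8 of 11 fits in R183W cells (edgeR adjusted p up to 0.335), in 4 in WT cells (up to 0.121, without R183W vehicle 3, WT vehicle 2 or 3, or WT WM1119 library 2) and in 8 for the interaction (up to 0.276). The lost R183W and interaction calls were those without any 1 of the R183W libraries, WT WM1119 library 2, or WT vehicle 2 or 3. SLBP, the stem-loop binding protein, stood in R183W cells at 5.62 ± 1.88 CPM in vehicle libraries (SD, n = 3) and 3.1 ± 1.39 CPM (n = 2) in WM1119 libraries (log2 difference -0.83, SE 0.51, edgeR adjusted p = 0.4). SLBP in the WT line stood at 6.15 ± 2.24 and 4.96 ± 2.01 CPM (n = 3 each; edgeR adjusted p = 0.757). NPAT, the coactivator of the histone locus body, had log2 differences of -0.18 and 0.20 in R183W and WT cells, and CASP8AP2 (FLASH), which takes part in cutting the pre-mRNA, -0.35 and -0.08. LSM11, of the U7 particle, had 0.12 and 0.16, and no call was made for these 4 genes in any comparison.

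Histone chaperones, which carry new histones to DNA, were listed as 26 genes. Of these, 1 rose with WM1119 in R183W cells, CABIN1 of the HIRA complex (log2 change 0.68, SE 0.15, edgeR adjusted p = 0.0214), against 1.99% of all genes tested called higher. In WT cells 4 rose: HAT1, which acetylates new H4 (0.96, edgeR adjusted p = 0.0417), CHAF1A, the large subunit of the replication-coupled chaperone CAF-1 (0.95, 0.00631), the importin IPO9 (0.66, 0.00933, and 0.054 without WT vehicle library 3) and CABIN1 (0.58, 0.031), against 2.33% of all genes tested called higher. With 1 library left out the WT call of HAT1 was lost in 8 of 11 fits (edgeR adjusted p up to 0.121, without any library but R183W WM1119 1 or 2 or WT WM1119 1), and that of CABIN1 in 7 (up to 0.132, without R183W vehicle 2 or 3, either R183W WM1119 library, WT vehicle 2 or 3, or WT WM1119 library 2). The R183W call of CABIN1 was lost without R183W vehicle 2 or 3 or either R183W WM1119 library (up to 0.182). CHAF1A read 112, 139 and 126 CPM against 88.1 and 87.9 in R183W cells and 94.2, 83.9 and 66.2 CPM against 139, 140 and 195 in WT cells. The order of the treatments was opposite in the lines, and the interaction of CHAF1A passed the test (log2 -1.47, SE 0.25, edgeR adjusted p = 0.0274). That call was lost in 7 of 11 fits that left out 1 library (edgeR adjusted p up to 0.2), the same 7 libraries as for CABIN1 in WT cells. Between the lines, 2 chaperone genes were higher and 1 lower in R183W cells under vehicle, against 6.82% and 6.17% of all genes tested. Under WM1119, 1 was higher and 5 lower, against 4.64% and 3.92%. Among 14 histone variant genes outside the clusters, whose mRNAs are mostly polyadenylated, 11 were tested. None was called in R183W cells by edgeR, where 1 had an unadjusted p under 0.05, and H3F3B, which encodes H3.3, fell in WT cells by 0.53 (SE 0.12, edgeR adjusted p = 0.0227), a call lost when WT WM1119 library 2, or WT vehicle 2 or 3, was left out (edgeR adjusted p up to 0.101). The variants together summed to 4704 ± 120 and 4650 ± 46.8 CPM in R183W cells without and with WM1119.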

How the data were processed

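RNA-seq of 11 HEC50B libraries was analysed from the deposited gene table. The authors deposited expected counts, that is, estimated counts per gene, and hg19, STAR and RSEM are named, without versions, per the submitters' processing notes. Their annotation was not given in the sources used here. Gene names, types and lengths came from GENCODE 29 by Ensembl ID and promoters from RefSeq on GRCh38.p14. Nothing was joined by position. Of 57736 rows 52301 were named, and the other rows held 0.89% of the counts.

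Values were rounded and totals ran from 2609922 to 6065149 counts, and the floor of 3 counts stood at 1.15 CPM in the shallowest library and at 0.495 CPM in the deepest, for counting error only. Genes were filtered with filterByExpr, scaled by TMM and tested with the quasi-likelihood F test of edgeR 4.0.16 (R 4.3.3, two-sided) in 1 fit of 4 group means, which assumes that the groups share the spread of a gene. P-values were adjusted by Benjamini-Hochberg over the 13980 genes tested, with calls at an adjusted p under 0.05. The biological coefficient of variation was 19.6%. CPM values were computed from the TMM-scaled library sizes, and groups are given as mean ± SD.

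Of 24 members, those called in any comparison and the 12 with the highest mean CPM are given in every library; HIST1H2BC, HIST1H2BN and HIST1H4J were added after their values were seen. Context lists are named by their called genes, up to 4 per comparison, and SLBP, NPAT, LSM11 and CASP8AP2. The members and lists were chosen with earlier results of these data known. Alternatives were RLE factors, DESeq2 1.42.0, limma-voom (limma 3.58.1), no filter, a replicate block, only the groups compared, each library left out, and near-identical copies summed. On simulated counts over 13980 genes, 4-fold changes were recovered at 69.7% for the inhibitor in R183W cells and 77.3% in WT cells, and 2-fold changes at 31.3% and 37.3%.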

Additional observations from a re-analysis of the deposited data

How the results depend on the processing

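For the clustered histone genes, no call changed direction under the alternatives tried. In R183W cells the 2 calls with WM1119 were made under every setting tried, and with no filter on low counts 5 were made (3 higher, 2 lower), with only the groups compared 8 (5 higher, 3 lower), and with 1 library left out 2 to 6. The median there was -0.01 with no filter, which adds the 9 rarest members, and 0.15 to 0.87 with 1 library left out. In WT cells the 1 call became 0 with only the groups compared and 0 to 1 with 1 library left out. For R183W against WT under WM1119 the 3 calls became 8 with no filter (5 higher, 3 lower), 0 with only the groups compared, and 0 to 4 with 1 library left out; the median was 0.13, 0.15 and -0.37 to 0.23. Under vehicle the median was 0.36 with no filter and 0.04 to 0.40 with 1 library left out, and the interaction median was -0.59 and -0.64 to 0.18. The calls over all genes tested moved with the setting too. In R183W cells they were 649 of 13980 in the main fit, 1110 of 23410 with no filter and 2406 of 13215 with only the groups compared. Without WT WM1119 library 3, the fit with 6 members called, they were 1600 of 13897. In WT cells they were 680 of 13980, and 139 of 12744 with only the groups compared. Between the lines under WM1119 they were 1197 of 13980, 1783 of 23410 and 319 of 12820. The cause of these shifts was not tested. RLE factors, DESeq2 and limma-voom left every count of members called within 1.5 times. Over all 13980 genes tested this did not hold. DESeq2 called 1086 in WT cells, against 680 in the main fit, and 157 for the interaction, against 40. Summing 3 near-identical H3 rows into 1 could not change the calls, since the summed row did not pass the filter on low counts. It therefore says nothing about how reads shared between copies affect them.

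Libraries with the same replicate number did not deviate together: over 15 such pairs r ran from -0.391 to 0.137, and 2 were over 0.1. Over 30 pairs with other numbers r ran from -0.163 to 0.405, and 5 were over 0.1, so some libraries of different groups did deviate together. The check gave no sign of pairing by number. With 2 or 3 libraries in a group it cannot exclude that same-numbered libraries were handled together. With the replicate block, the counts of clustered histone genes called were 2 in R183W cells, 0 in WT cells, 0 between the lines under vehicle, 0 under WM1119 and 0 for the interaction. Of all 13980 genes tested, that fit called 261, 287, 1189, 678 and 0 in the same order.

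Depth limits the rare members. With 3 counts as the floor, levels under 1.15 CPM could not be told from 0 in the shallowest library, and 12 of the 36 named rows had fewer than 10 counts in all. With 2 R183W WM1119 libraries, 2-fold changes in simulated counts were recovered at 31.3%.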

Other observations

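2 histone pseudogenes, HIST1H3PS1 with 274 counts and HIST2H2BC with 149 over the 11 libraries, were also among the genes tested. Neither was called by edgeR in any of the 5 comparisons. HIST1H3PS1, an H3 pseudogene, had log2 differences with WM1119 of 0.38 (SE 0.52, edgeR adjusted p = 0.742) in R183W cells and 0.53 (SE 0.47, edgeR adjusted p = 0.559) in WT cells. HIST2H2BC, an H2B pseudogene, had 0.91 (SE 0.64, edgeR adjusted p = 0.464) and -0.15 (SE 0.62, edgeR adjusted p = 0.917). The estimates of HIST2H2BC in R183W cells and of the 5 H2B members tested were all above 0, and reads that fit both a gene and a pseudogene are shared out by estimation.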
